A study of Mus musculus with 24 samples.

Results

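The 8 genes described here, Cdkn2a, Cdkn2b, Trp53, Pax5, Ebf1, Ikzf1, Btg1 and Etv6, are lymphoid tumour suppressors that were taken by symbol from the 37315 genes of the allelic count table of the Abl clones. All 8 had at least 10 allelic counts in each of the 4 first-run Abl libraries, as did 10068 genes in all. Abl.1 and Abl.2 are clonal Abelson lymphoblastoid lines from female 129S1/SvImJ x CAST/EiJ F1 mice, labelled as immortalised B cells and as untreated controls, and each clone is a single line, so nothing measured here separates a property of a line from one of its kind. Every clone has 2 SMARTseq v4 libraries of 10 ng total RNA, and both Abl.2 libraries were sequenced a second time. For comparison, 6 SMARTseq libraries of 10 ng were made from the left kidney RNA of 1 adult female F1 mouse of the same cross, also an untreated control. No age beyond adult is given for that animal, and no passage number for the lines. Libraries of a group share their RNA source or line, so p-values of total counts measure the spread between libraries, which may be technical. Those of the proportional tests of AI rest on pooled counts and a single correction constant per group. They do not use the spread of the gene itself between libraries.

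The INK4 proteins made by Cdkn2a and Cdkn2b hold the kinases Cdk4 and Cdk6 inactive and keep Rb1 in its growth-restraining form. A second product of Cdkn2a, p19Arf, binds Mdm2 and so spares p53, the product of Trp53, from degradation. Ebf1, Pax5 and Ikzf1 encode transcription factors that set and hold the B-lymphoid programme, Btg1 encodes an antiproliferative cofactor of mRNA deadenylation, and Etv6 encodes an ETS-family repressor. Deletions of these genes are known from B-lineage leukaemia, and loss of p19Arf or p53 is known to favour the outgrowth of pre-B cells transformed by Abelson virus.

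Every value rests on allelic counts, that is, on reads over positions where the parental strains differ. The AI of a gene is the count in the maternal column divided by the sum of the maternal and paternal columns, so that 0.5 stands for equal counts. The column names are kept as deposited, although the methods assign the maternal column to 129S1, and they are not read here as proof of parental origin. Total allelic counts lay between 19213150 and 22410835 in the 6 Abl sequencing runs and between 6360257 and 6397679 in the kidney libraries of 10 ng. Allelic counts depend on the number of strain differences in a gene, so levels are compared between libraries and not between genes. The counts of Cdkn2a sum its p16Ink4a and p19Arf transcripts, which cannot be told apart here. In bulk RNA, fewer cells of a type and less RNA per cell cannot be told apart either.

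Cell type markers were as the labels imply in their main point. All 8 B-lineage precursor markers had at least 10 counts in every library of both clones, and summed to between 8989 and 9451 CPM (allelic counts scaled to a common library total) in Abl.1 and between 9925 and 9940 CPM in Abl.2, against 67.6 to 87.6 CPM in kidney. Other markers differed between the clones: the 4 myeloid markers summed to between 166 and 192 CPM in Abl.1 and between 299 and 309 CPM in Abl.2. The higher sum in Abl.2 came from Lyz2, with 2556 to 2939 counts in Abl.1 and 6368 to 6825 in Abl.2. The other myeloid markers went the other way: Csf1r had 412 to 1139 counts in Abl.1 and 0 to 4 in Abl.2. Itgam had 186 to 207 and 15 to 19, and Mpo 0 to 8 and 0. Of the 4 T cell markers, Cd3e had 36 to 49 counts in Abl.1 and 0 in Abl.2, while Cd3g was at 0 in both clones. Of the 6 kidney epithelium markers, all were at 0 in Abl.1, whereas Umod had 174 to 200 counts and Slc34a1 29 to 121 in Abl.2, where Lrp2 and Aqp2 stayed at 0. The part of these markers in the results was not tested.

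The Cdkn2 genes lie side by side on chromosome 4 of GRCm38 and are read from the minus strand. Cdkn2a (ENSMUSG00000044303) spans chr4:89274471-89294653 and Cdkn2b (ENSMUSG00000073802) spans chr4:89306299-89311039. Their upstream sequences are shown because counts of both genes were higher in the same clone. RefSeq promoters of GRCm38.p6 matched all 8 genes, with 11 start sites, and the 200 bases from 250 to 51 before the start are given, on the strand of the gene and clear of annotated exons. Capitals mark a GC box (GGGCGG), an E-box (CACGTG) or an E2F motif (TTTCGCGC or TTTGGCGC), searched on both strands.
Cdkn2a, upstream start, minus strand, chr4:89294670-89294869: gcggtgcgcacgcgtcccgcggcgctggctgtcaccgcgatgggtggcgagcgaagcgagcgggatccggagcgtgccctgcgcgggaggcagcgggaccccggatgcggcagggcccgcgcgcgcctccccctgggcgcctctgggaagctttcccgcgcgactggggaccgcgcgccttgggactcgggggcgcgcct
Cdkn2a, downstream start, minus strand, chr4:89282243-89282442: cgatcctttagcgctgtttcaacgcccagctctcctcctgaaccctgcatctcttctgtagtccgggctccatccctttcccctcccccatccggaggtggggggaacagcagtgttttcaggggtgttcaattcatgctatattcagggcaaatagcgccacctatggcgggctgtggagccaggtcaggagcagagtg
Cdkn2b, minus strand, chr4:89311083-89311282: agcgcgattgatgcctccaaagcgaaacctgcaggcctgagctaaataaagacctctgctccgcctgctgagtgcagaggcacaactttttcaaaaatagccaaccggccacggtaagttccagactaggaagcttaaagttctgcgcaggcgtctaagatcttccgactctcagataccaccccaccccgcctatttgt
Ikzf1, upstream start, plus strand, chr11:11685675-11685874: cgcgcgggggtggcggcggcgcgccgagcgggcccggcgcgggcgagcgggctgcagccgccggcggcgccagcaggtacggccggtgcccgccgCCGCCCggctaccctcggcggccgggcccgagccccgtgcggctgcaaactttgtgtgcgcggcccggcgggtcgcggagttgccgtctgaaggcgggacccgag

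The upstream windows differed in CpG content. The upstream start of Cdkn2a held 34 CpG and a G and C share of 79%, and that of Ikzf1 39 CpG and 83%, against a median of 4 CpG over 32851 promoters. The downstream start of Cdkn2a held 7 CpG and Cdkn2b held 10. None of these letters was found in the 3 Cdkn2 windows, and 1 GC box was found in the Ikzf1 window. Over all promoters of this length, 24.6% held a GC box, 4.34% an E-box and 0.539% an E2F motif.

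Total counts of Cdkn2a and Cdkn2b were higher in Abl.2 than in Abl.1. Cdkn2a had 386 and 436 counts in the Abl.1 libraries and 2158 and 1945 in those of Abl.2, with 2273 and 2033 in the second run. Cdkn2b had 41 and 49 counts in Abl.1, 402 and 495 in Abl.2, and 475 and 411 in the second run. With 2 libraries a clone, libraries of equal level would separate by chance in 33.3% of genes, so separation of the libraries says little by itself. How many of all genes separated was not counted. In edgeR's quasi-likelihood test with TMM scaling (trimmed mean of M values) and Benjamini-Hochberg adjustment, the log2 fold change from Abl.1 to Abl.2 was 1.90 ± 0.19 (SE, adjusted p = 0.00103) for Cdkn2a and 2.89 ± 0.28 (adjusted p = 9.14e-04) for Cdkn2b. These correspond to 3.72-fold and 7.43-fold higher counts.

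Across the 8 genes, 4 were called higher in Abl.2 (Cdkn2a, Cdkn2b, Ikzf1 and Btg1) and 1 lower (Etv6), while Trp53, Ebf1 and Pax5 did not pass the test. Over all 12526 genes tested, 21.9% were called higher and 24.4% lower. Because differences between the clones were this common, a share of called genes says little by itself. Library totals in place of TMM factors shifted the median log2 fold change of all genes by 0.35 and changed the share of higher calls among all calls from 47.3% to 62.8%. Under that scaling the same number of 5 genes was called, and Trp53 changed sign.

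**Figure D1:**
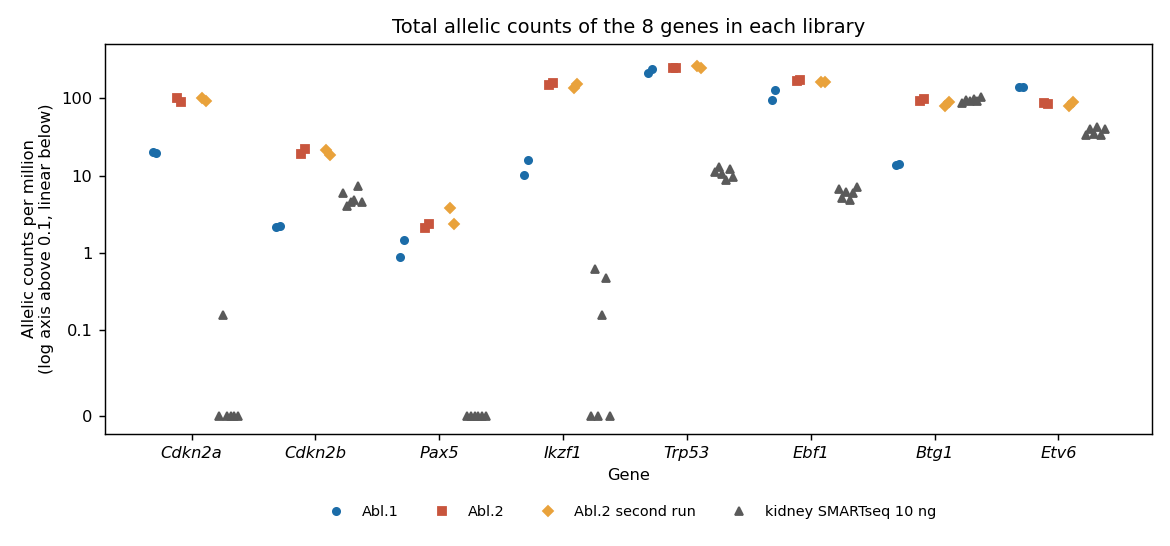
Allelic CPM of the 8 genes (horizontal axis) in each library, on a vertical axis that is logarithmic above 0.1 and linear below. Points are libraries of Abl.1, Abl.2, the second run of Abl.2 and kidney SMARTseq 10 ng, and Pax5 is at 0 in all kidney libraries. Values are not TMM-scaled. Without that scaling the median log2 fold change from Abl.1 to Abl.2 over all tested genes is 0.36, and 62.8% of all calls are higher in Abl.2. A higher point in Abl.2 therefore says little by itself, and how many of all genes separate between the clones was not counted. Trp53 differs by little (240 CPM at most in Abl.1, 242 at least in Abl.2).

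The allele columns of the Cdkn2 genes differed more sharply than the totals. In Abl.1 the maternal and paternal columns of Cdkn2a held 267 and 119 counts in replicate 1 and 284 and 152 in replicate 2. In Abl.2 they held 2158 and 0 in replicate 1 and 1941 and 4 in replicate 2, followed in the second run by 2271 and 2, and 2031 and 2. The paternal column of Cdkn2a was thus nearly empty in every Abl.2 run and clearly filled in both Abl.1 libraries. For Cdkn2b these columns held 14 and 27, and 27 and 22 counts in Abl.1, but 402 and 0, and 495 and 0 in Abl.2. In the second run they held 474 and 1, and 411 and 0. A paternal count of 0 allows a share of up to 0.139% in replicate 1 of Abl.2 for Cdkn2a, and of up to 0.746% and 0.606% in replicates 1 and 2 for Cdkn2b, with counting error only.

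To compare AI, counts were pooled over the libraries of a clone and divided by the square of the quality correction constant (QCC), which measures how far AI differs between libraries beyond binomial sampling. QCC was 2.54 for Abl.1, 2.16 for Abl.2 and 1.47 for kidney SMARTseq 10 ng. The pooled AI of Cdkn2a was 0.670 in Abl.1 (95% interval 0.585 to 0.746) and 0.999 in Abl.2 (0.994 to 1.00), a difference of 0.329 (adjusted p = 5.57e-62, two-sided two-sample proportional test with Bonferroni adjustment). For Cdkn2b it was 0.456 (0.234 to 0.697) in Abl.1 and 1.00 (0.980 to 1.00) in Abl.2, a difference of 0.544 (adjusted p = 2.17e-21 in the same test). Ikzf1 was the other gene called, so that AI differed for 3 of the 8 genes, where 18.8% of the 10068 genes tested were called.

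Against an AI of 0.5 the 2 clones gave different lists of genes. In Abl.1 the QCC-corrected test called Ikzf1 and Ebf1 biased, 2 of 8 genes, with 22.5% of all 11196 genes called. In Abl.2 it called Cdkn2a, Cdkn2b, Ebf1 and Btg1, 4 of 8, with 29.9% of 11228 genes called. The AI of Cdkn2a in Abl.1 lay above 0.5 in both libraries, at 0.692 and 0.651, and passed the proportional test under Benjamini-Hochberg adjustment (adjusted p = 4.48e-04) but not under Bonferroni adjustment (adjusted p = 1.00). Without replicate 2 of Abl.1 only Ikzf1 was called in that clone.

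**Figure D2:**
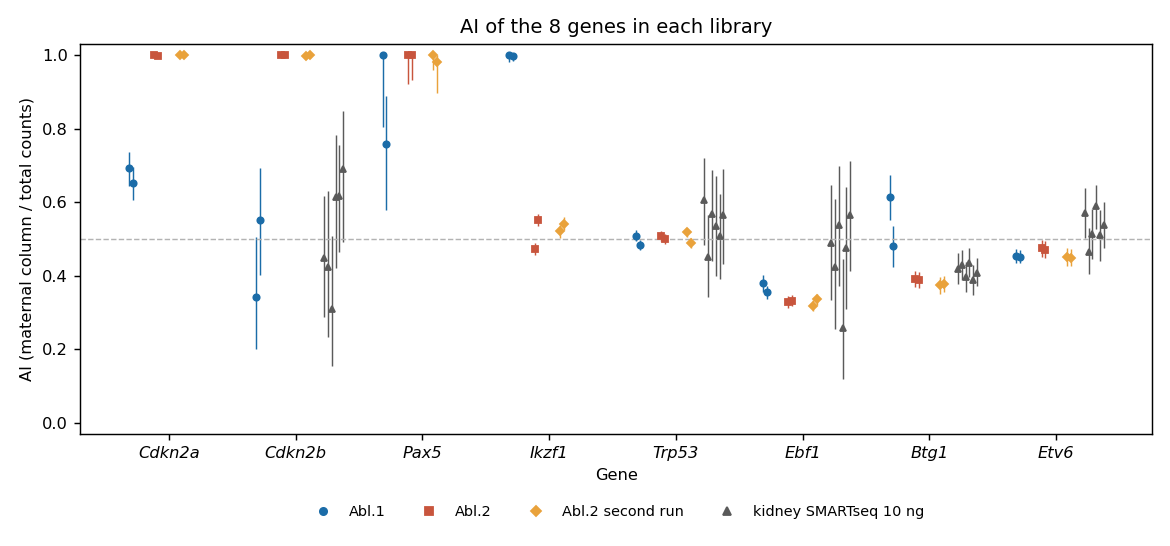
AI of the 8 genes (horizontal axis) in each library with at least 10 counts, with exact 95% binomial intervals that cover counting error only; the dashed line marks 0.5. Cdkn2a and Cdkn2b sit between 0.998 and 1.00 in all Abl.2 runs, Ikzf1 sits at 0.997 and 1.00 in Abl.1, and Trp53 lies near 0.5 in all Abl libraries.

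Most measured genes around the Cdkn2 locus also had nearly all counts in the maternal column in Abl.2. Mtap, a gene of methionine salvage that lies 93.4 kb from Cdkn2a at chr4:89137122-89181081, had an AI of 0.605 in Abl.1, 1.00 in Abl.2 and 0.514 in kidney. Unlike Cdkn2a, its total counts were lower in Abl.2, at 1460 and 1398 against 3369 and 5322 (log2 fold change -2.0 ± 0.19, edgeR adjusted p = 8.31e-04). On the other side the nearest measured gene apart from Cdkn2b, Gm12666, lies 2896 kb away and departed from this, with an AI of 0.277 in Abl.1 and 0.25 in Abl.2. The neighbours closest to Cdkn2a in AI over the 6 Abl runs were Focad, 0.632 in Abl.1 and 1.00 in Abl.2 (root mean square difference 0.017), and Mtap. Those closest to Cdkn2b were Mysm1, 0.458 and 1.00 (0.024), and Fggy, 0.407 and 0.997 (0.056).

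Of the 20 nearest measured genes, 10 on each side and the Cdkn2 genes left out, 17 had an AI above 0.95 in Abl.2 and none had in Abl.1. Their median AI was 0.999 in Abl.2 and 0.509 in Abl.1, and 0.483 in kidney, where 16 of them had at least 10 counts in each library. AI differed between the clones for 15 of the 20. The pattern was not limited to this part of the chromosome: of the 660 measured genes on chromosome 4, 604 (91.5%) had an AI above 0.95 in Abl.2, against 16 (2.42%) in Abl.1, and the median in kidney was 0.508. Over all 10068 measured genes the shares were 8.81% in Abl.2 and 2.79% in Abl.1.

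The allele columns were also compared in amount, as the log2 ratio of Abl.2 over Abl.1 with the TMM factors of the total counts and 0.5 added to the pooled counts. In the maternal column the median ratio was 0.92 over the 20 neighbours of the Cdkn2 genes and 0.95 over chromosome 4, compared with 0.036 over 6261 genes of the autosomes other than 4, 5, 7, 10 and 11. The maternal ratio of Cdkn2a was 2.48 and that of Cdkn2b 4.02, above the median of their neighbours. In the paternal column the ratio of Cdkn2a was -6.33 and the median of the neighbours -7.86. Cdkn2b had at least 21.7-fold lower paternal counts in Abl.2 than in Abl.1, where 0 counts were set to a floor of 3 over the clone.

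Pax5 (ENSMUSG00000014030, chr4:44524757-44710487, minus strand), which encodes the factor that commits progenitors to the B lineage, lies on the same chromosome. Its counts were low in both clones, with 17 and 33 in Abl.1, 45 and 53 in Abl.2, and 86 and 52 in the second run. The log2 fold change of 0.58 ± 0.53 did not pass (edgeR adjusted p = 0.405). Exons of Pax5 share bases with 5730488B01Rik and Gm12462 in the GENCODE annotation, and without strand information reads of such pairs cannot be told apart. In Abl.1 its maternal and paternal columns held 17 and 0, and 25 and 8 counts. In Abl.2 they held 45 and 0, and 53 and 0, and in the second run 86 and 0, and 51 and 1.

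At this depth, single-allele counts of Pax5 could be described in Abl.2 only. Its pooled AI was 1.00 in Abl.2 (0.845 to 1.00) and 0.840 in Abl.1, with a wide interval of 0.488 to 0.967. The difference of 0.160 had an interval of -0.0980 to 0.418 and did not pass (adjusted p = 1.00, two-sample proportional test). In Abl.2 the departure from 0.5 had an adjusted p of 0.0528, just short of the threshold, and 6.95e-04 in the second run (QCC-corrected one-sample proportional test, Bonferroni). Among the 20 neighbours of Pax5 the median AI was 0.461 in Abl.1 and 0.998 in Abl.2, with 14 above 0.95 in Abl.2 and 1 in Abl.1. Of these, Melk had an AI of 0.524 and 0.998, and Zcchc7 of 0.452 and 0.998, in Abl.1 and Abl.2; these are the nearest measured genes. Closest in AI were Aldh1b1, at 0.999 and 1.00, and Trmt10b, at 0.627 and 0.997, with root mean square differences of 0.099 and 0.173. The maternal ratio of Pax5 was 0.80, beside a median of 0.74 over its neighbours.

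Ikzf1 (ENSMUSG00000018654, chr11:11685003-11772926, plus strand), which encodes Ikaros, a zinc finger factor needed for lymphoid development, showed the opposite arrangement. Its maternal and paternal columns held 196 and 0 counts in replicate 1 of Abl.1 and 348 and 1 in replicate 2. In Abl.2 they held 1510 and 1689, and 1914 and 1560 counts, and in the second run 1565 and 1443, and 1820 and 1541. Both columns were thus filled in Abl.2, and the maternal column held nearly all counts in Abl.1. Total counts were 9.36-fold higher in Abl.2 (log2 fold change 3.23 ± 0.23, edgeR adjusted p = 3.15e-04).

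The pooled AI of Ikzf1 was 0.998 (0.953 to 1.00) in Abl.1 and 0.513 (0.487 to 0.539) in Abl.2, a difference of -0.485 (adjusted p = 3.51e-14, two-sample proportional test with Bonferroni adjustment). The AI of 0.472 and 0.551 in the Abl.2 libraries lay on either side of 0.5, as their exact intervals of 0.455 to 0.490 and 0.534 to 0.568 did. In the second run the same libraries gave 0.520 and 0.542. Paternal counts were 1 in Abl.1 and 3249 in Abl.2, a scaled ratio of 2440 with a counting interval of 438 to 96408. The maternal column was also higher in Abl.2, with a log2 ratio of 2.24, while the median over its neighbours was -0.094.

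Many neighbours of Ikzf1 had nearly all counts in the maternal column in Abl.1. Of the 20 nearest measured genes, which extend 5.30 Mb below and 6.18 Mb above Ikzf1, 12 had an AI above 0.95 in Abl.1 and 0 had in Abl.2. Their median AI was 0.995 in Abl.1, 0.462 in Abl.2 and 0.494 over the 14 measured in kidney. Ikzf1 lay in a stretch of 10 consecutive measured genes with an AI above 0.95 in Abl.1, over 10.4 Mb. The nearest measured genes were Fignl1, 14.5 kb away, with an AI of 0.993 in Abl.1 and 0.449 in Abl.2, and Spata48, 170 kb away, with 1.00 and 0.278 from 12 to 37 counts a library. Closest in AI were Sec61g, at 0.999 and 0.548 (root mean square difference 0.029), and Myo1g, at 0.997 and 0.464 (0.058); the kidney AI of Sec61g was 0.0493.

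This arrangement was seen at the start of chromosome 11 and not along the whole of it. In Abl.1, 43 of 64 measured genes in the first 10 Mb and 7 of 14 in the next 10 Mb had an AI above 0.95, against 1 of 38 between 20 and 30 Mb, where the median AI was 0.506. From 90 Mb to the end, median AI in Abl.1 was between 0.665 and 0.677 in bins of 10 Mb, while it stayed between 0.499 and 0.513 in Abl.2. These bins were chosen after the values were seen. Trp53 and Ebf1 lie on the same chromosome, in bins whose median AI in Abl.1 was 0.508 and 0.517.

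**Figure D3:**
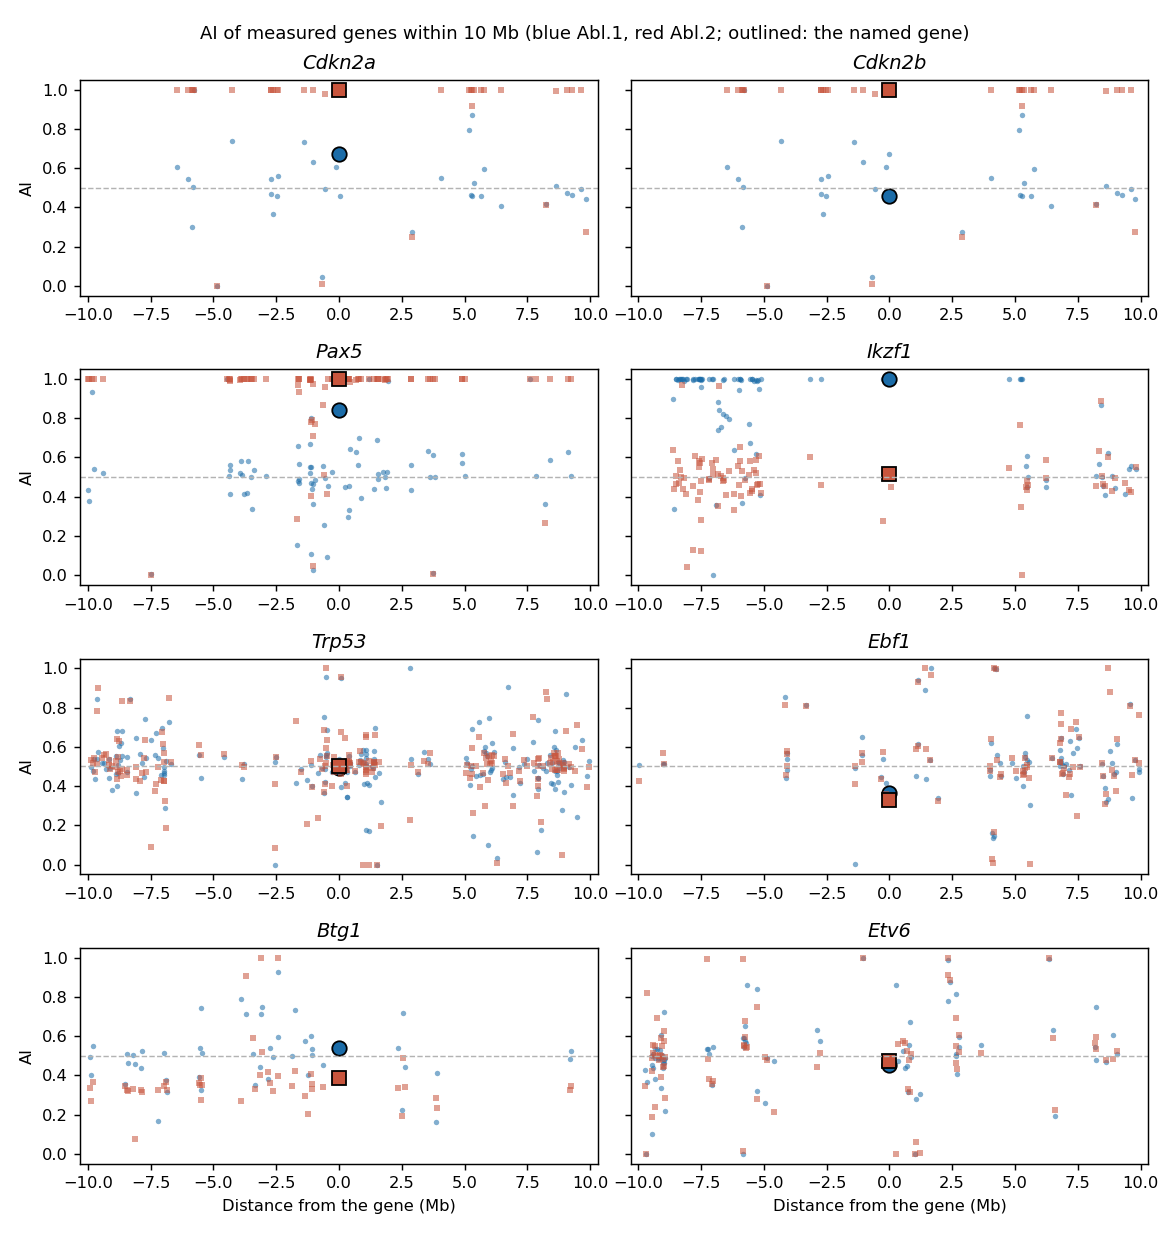
AI (vertical axis) of measured genes by their distance in Mb (horizontal axis) from each of the 8 genes, with Abl.1 as circles and Abl.2 as squares and the named gene outlined. Most genes around Cdkn2a, Cdkn2b and Pax5 sit near 1 in Abl.2 and not in Abl.1. Around Ikzf1, 44 of 65 genes below it and 5 of 24 above it exceed 0.95 in Abl.1, against 2 and 0 in Abl.2. Those above it lie no farther than 5.28 Mb. The 20 nearest measured genes of Btg1, which reach 12.4 Mb above it and so past the plotted range, have a lower median in Abl.2 (0.344) than in Abl.1 (0.530).

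Ebf1 (ENSMUSG00000057098, chr11:44617317-45008091, plus strand), which encodes a pioneer factor of B-cell specification, had a similar bias to the paternal column in both clones. Its maternal and paternal columns held 679 and 1115, and 989 and 1803 counts in Abl.1. In Abl.2 they held 1167 and 2387, and 1243 and 2507. The second run gave 1137 and 2435, and 1193 and 2368. All 6 values of AI lay between 0.318 and 0.379. Pooled AI was 0.364 (0.329 to 0.40) in Abl.1 and 0.330 (0.307 to 0.354) in Abl.2, and both differed from 0.5, with adjusted p = 4.04e-09 and 3.94e-37 in the one-sample proportional test. Without replicate 2 of Abl.1 the bias in that clone no longer passed (adjusted p = 0.589). The difference between the clones was -0.0338, with an interval of -0.0761 to 0.00859 and an adjusted p of 1.00 in the two-sample proportional test.

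Total counts of Ebf1 were 1794 and 2792 in Abl.1 and 3554 and 3750 in Abl.2. The log2 fold change of 0.27 ± 0.18 did not pass (edgeR adjusted p = 0.251), although it did without replicate 2 of Abl.1 (0.38, edgeR adjusted p = 0.00986). In such a fit the clone with 1 library left is assumed to vary as the other clone does, which supplies all of the spread. The 20 neighbours had a median AI of 0.534 in Abl.1 and 0.564 in Abl.2, and 2 and 1 of them, respectively, lay below Ebf1. One of those closest in AI, Gm12158, lies within the span of Ebf1 without sharing its exons, and had an AI of 0.415 and 0.360. The other was Gm12174, with 0.337 and 0.322 (root mean square differences of 0.058 and 0.024). On the side of higher coordinates the nearest, Clint1 at 844 kb, had 0.453 and 0.589. Below the gene Rnf145, its midpoint 0.27 Mb from that of Ebf1, had 0.540 and 0.573.

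Trp53 (ENSMUSG00000059552, chr11:69580359-69591873, plus strand), which encodes p53, had both columns filled alike in every library. Its maternal and paternal columns held 2056 and 1985, and 2575 and 2760 counts in Abl.1, and 2627 and 2547, and 2684 and 2699 in Abl.2. In the second run they held 3026 and 2823, and 2642 and 2765. Pooled AI was 0.494 (0.468 to 0.520) in Abl.1 and 0.503 (0.482 to 0.524) in Abl.2, and the interval of the difference ran from -0.0238 to 0.0421. No departure from 0.5 and no difference between the clones passed (adjusted p = 1.00 in each proportional test). Allelic counts at the strain differences carry no information on point mutations elsewhere in the gene, which were not analysed here.

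Total counts of Trp53 were 4041 and 5335 in Abl.1 and 5174 and 5383 in Abl.2. With TMM scaling the log2 fold change was -0.24 ± 0.16 (edgeR adjusted p = 0.273), and it was -0.28 and -0.26 with adjusted p = 0.0194 and 0.0299 in edgeR without replicate 1 or 2 of Abl.1, where the spread again came from Abl.2 alone. With library totals it was 0.11 (edgeR adjusted p = 0.631), so that even the sign depended on scaling. The 20 neighbours had a median AI of 0.490 in Abl.1 and 0.522 in Abl.2, and AI differed between the clones for none of them by the Bonferroni-adjusted test. The nearest, Wrap53 at 0.104 kb and Fxr2 at 41.1 kb, had AI of 0.536 and 0.488 in Abl.1 and of 0.519 and 0.524 in Abl.2. Closest in AI were Chd3, at 0.478 and 0.505, and Senp3, at 0.475 and 0.516, each with a root mean square difference of 0.017.

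Btg1 (ENSMUSG00000036478, chr10:96617006-96622809, plus strand) had 5.41-fold higher counts in Abl.2 (log2 fold change 2.44 ± 0.18, edgeR adjusted p = 3.79e-04). Its maternal and paternal columns held 159 and 100, and 150 and 163 counts in Abl.1. In Abl.2 they held 770 and 1202, and 842 and 1328, and in the second run 671 and 1126, and 750 and 1235. Both columns were higher in Abl.2, and the paternal column was the larger one in each of its runs. The AI of the Abl.1 libraries, 0.614 and 0.479, lay further apart than those of Abl.2, 0.390 and 0.388.

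Pooled AI of Btg1 was 0.540 (0.437 to 0.640) in Abl.1 and 0.389 (0.358 to 0.422) in Abl.2, where it differed from 0.5 (adjusted p = 4.74e-07, one-sample proportional test). Without replicate 2 of Abl.2 this call was lost (adjusted p = 0.0800). The difference of -0.151 between the clones had an interval of -0.260 to -0.0425 but did not pass Bonferroni adjustment (adjusted p = 1.00). It passed with Benjamini-Hochberg adjustment (0.020), in edgeR's quasi-likelihood test on the allele columns (edgeR adjusted p = 0.0484), and without QCC (5.60e-08).

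The surroundings of Btg1 had a like AI in Abl.2. The median over its 20 neighbours was 0.344 in Abl.2, 0.530 in Abl.1 and 0.534 over the 18 measured in kidney, and over the 485 measured genes of chromosome 10 it was 0.338, 0.506 and 0.509. AI differed between the clones for 8 of the 20 neighbours. Eea1, 571 kb away, had an AI of 0.456 and 0.339, and Atp2b1, 2292 kb away, had 0.539 and 0.335, in Abl.1 and Abl.2. Closest to Btg1 in AI were Ube2n, at 0.534 and 0.332, and Ndufa12, at 0.598 and 0.399, with root mean square differences of 0.039 and 0.044. Over chromosome 10 the median log2 ratio of Abl.2 over Abl.1 was 1.04 in the paternal and 0.041 in the maternal column. For Btg1 these ratios were 2.85 and 1.97, both above the medians of 1.20 and 0.39 of its neighbours.

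Etv6 (ENSMUSG00000030199, chr6:134035700-134270158, plus strand) was the gene with lower counts in Abl.2. It had 2710 and 3102 counts in Abl.1, 1858 and 1835 in Abl.2, and 1748 and 1973 in the second run. The log2 fold change was -1.08 ± 0.17, or 2.11-fold lower (edgeR adjusted p = 0.00477). The call was lost without replicate 1 or 2 of Abl.2, at edgeR adjusted p = 0.0616 and 0.0874, where the fold change was -1.09 and -1.02 and the spread came from Abl.1 alone. With library totals it was -0.72 (edgeR adjusted p = 0.0173). An exon of Etv6 shares bases with Gm17089.

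The columns of Etv6 fell alike. They held 1231 and 1479, and 1399 and 1703 counts in Abl.1, 881 and 977, and 864 and 971 in Abl.2, and 787 and 961, and 886 and 1087 in the second run. The log2 ratio of Abl.2 over Abl.1 was -1.0 in the maternal and -1.12 in the paternal column, beside medians of -0.092 and 0.0049 over its neighbours. Pooled AI was 0.453 (0.420 to 0.485) in Abl.1 and 0.473 (0.438 to 0.507) in Abl.2, a difference of 0.020 with an interval of -0.0276 to 0.0676 (adjusted p = 1.00, two-sample proportional test). In the second run the difference was -0.00290. The 20 neighbours had a median AI of 0.510 and 0.502. Bcl2l14, 126 kb away, had 0.861 and 0.00 while Smim10l1, 925 kb away, had 1.00 in both clones, and the closest in AI were Cd69, at 0.490 and 0.478, and Ddx47, at 0.494 and 0.510, with root mean square differences of 0.029 and 0.045.

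**Figure D4:**
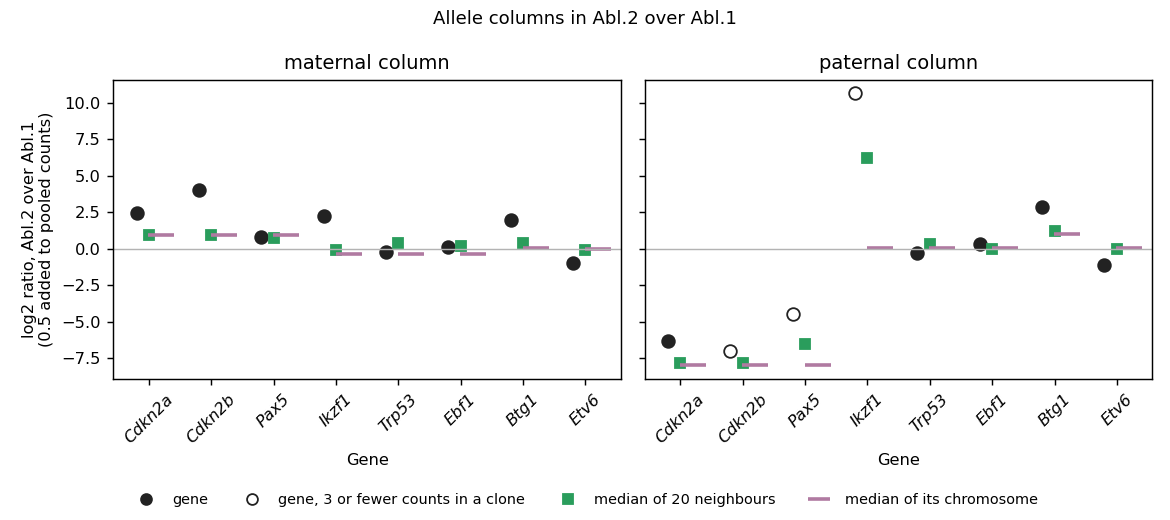
Log2 ratio of Abl.2 over Abl.1 (vertical axis) in the maternal and paternal columns for each of the 8 genes (circles, open where a clone has 3 counts or fewer and the value is no ratio), the median of its 20 neighbours (squares) and of its chromosome (dashes). On chromosome 4 the maternal column stands at 0.95 and the paternal column at -7.98, and Btg1 exceeds the medians of its neighbours in both columns.

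The second run of the Abl.2 libraries gave similar values. The labels hold 2 numberings of these libraries that disagree; runs were matched by the number in the title, and the difference between replicates correlated between the runs at 0.439 for log2 CPM and 0.449 for AI over 9408 genes, positive as it would be for matched numbers. AI of the 8 genes differed between the runs of a library by at most 0.0483, reached by Ikzf1 in replicate 1. The ratio of CPM between runs lay between 0.828 and 1.82, with the largest for Pax5, from 45 and 86 counts. With the second run in place of the first, 5 of the 8 genes were called in total counts and 3 in AI, as with the first. Over all genes, 5774 of 12508 were then called in total counts and 1899 in AI, so calls were common throughout.

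Compared with kidney, the 8 genes fell into those near 0 there and those that kidney expressed. Cdkn2a had 1 count in the 6 kidney libraries together, Pax5 0, and Ikzf1 8, with 0 to 4 a library. By counts over library totals, Cdkn2a was 760-fold higher in Abl.1 (counting interval 136 to 30049) and 3612-fold higher in Abl.2 (648 to 142713). Pax5 was at least 15.4-fold and 28.8-fold higher in Abl.1 and Abl.2, against a floor of 3 counts over the 6 kidney libraries. Ikzf1 had log2 fold changes of 5.37 ± 0.53 and 8.62 ± 0.23 over kidney. No kidney library reached 10 counts for Cdkn2a, Pax5 or Ikzf1. They passed the filter on low counts through the clone libraries alone, so a higher call was favoured in advance.

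The other genes were measured in kidney. Trp53 had 56 counts in the lowest, a median of 69 and 82 in the highest of the kidney libraries, and was higher in both clones, by log2 fold changes of 3.87 ± 0.11 in Abl.1 and 3.64 ± 0.09 in Abl.2. Ebf1 had 31, 38.5 and 46 counts in kidney and was higher by 3.67 ± 0.14 and 3.96 ± 0.10. Cdkn2b had 26, 30 and 47 counts in kidney, and was lower in Abl.1, by a log2 fold change of -1.77 ± 0.29 (edgeR adjusted p = 1.09e-04; -0.99 and 0.0468 against NEBNext kidney), and higher in Abl.2, by 1.14 ± 0.18 (edgeR adjusted p = 1.29e-05; 1.81 and 1.16e-05 against NEBNext kidney). The 2 clones thus lay on either side of kidney for this gene.

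Etv6 had 212, 236.5 and 267 counts in kidney, and log2 fold changes of 1.42 ± 0.11 in Abl.1 and 0.35 ± 0.09 in Abl.2. Btg1 had 544, 594.5 and 664 counts in kidney and was lower in Abl.1, by a log2 fold change of -3.28 ± 0.12. In Abl.2 it was -0.83 ± 0.07 (edgeR adjusted p = 3.11e-09), but 0.11 against the NEBNext kidney libraries (edgeR adjusted p = 0.352) and 0.034 with library totals (0.65), so its direction in Abl.2 is not settled. The value of Etv6 in Abl.2 became -0.11 against NEBNext kidney (edgeR adjusted p = 0.393). Other log2 fold changes that moved by over 1.5-fold against those libraries, while still passing, were those of Ikzf1 (4.35 in Abl.1 and 7.49 in Abl.2), Trp53 in Abl.1 (4.55) and Btg1 in Abl.1 (-2.23). Each of the 8 genes was called in both comparisons, 6 higher and 2 lower in Abl.1 and 7 higher and 1 lower in Abl.2. The higher calls include Cdkn2a, Pax5 and Ikzf1, which passed the filter through the clone libraries alone. Of all genes tested 37.1% were called higher and 46.5% lower in Abl.1, and 39.1% and 49.0% in Abl.2. Library totals moved the median of all genes by 0.53 and 0.86 on the log2 scale, and the share of higher calls from 44.4% to 57.8% in Abl.2. Both comparisons use the same kidney libraries. Tissue, culture, RNA extraction, sequencing platform, read layout and sequencing run cannot be told apart. The paper describes single-end reads for kidney and longer paired-end reads for the clones. Counts are added over SNPs, so read layout may change them by gene, which was not tested.

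AI in kidney could be tested for 5 of the 8 genes. Their pooled AI was 0.525 for Cdkn2b, 0.535 for Trp53, 0.470 for Ebf1, 0.412 for Btg1 and 0.531 for Etv6, and Btg1 was the one called biased (adjusted p = 8.06e-09, one-sample proportional test), where 24.3% of all genes were called. That call was absent in both other kidney library sets, in which the AI of Btg1 was 0.441 (NEBNext, 100 ng) and 0.478 (SMARTseq, 100 pg). Against kidney, AI in Abl.1 was called different for 0 of the 5 genes by the Bonferroni-adjusted test, where 17.4% of all genes were called. Benjamini-Hochberg adjustment called Btg1 and Etv6 (0.0499 and 0.00809), and edgeR's quasi-likelihood test called the same genes (edgeR adjusted p = 0.00306 and 0.0189). AI in Abl.2 was called different for Cdkn2b, by 0.475 (adjusted p = 2.44e-21), 1 of 5 genes, where 24.0% of all genes were called. The AI of Ebf1 in Abl.2 differed from kidney by -0.140, with an interval of -0.237 to -0.0421, which passed with Benjamini-Hochberg adjustment (0.00912) and in edgeR (edgeR adjusted p = 0.00763) but not with Bonferroni adjustment.

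Genes that act with these 8 were counted from lists. In the list of p53, ARF and Rb partners and targets, 7 of 24 tested genes were higher and 6 lower in Abl.2. Over all genes 21.9% were called higher and 24.4% lower. The median log2 fold change of the list was 0.35 beside 0.011 over all genes. With library totals 10 were higher and 3 lower, while the share of higher calls among all calls rose from 47.3% to 62.8%. Fewer genes were called without a library of Abl.2 and more without a library of Abl.1, in the list and over all genes alike. Cyclin D1, Ccnd1, which activates Cdk4 and Cdk6, had the largest change, with 35.4 and 33.5 CPM in Abl.1 and 0.890 and 0.677 in Abl.2 (log2 fold change -5.81 ± 0.30, edgeR adjusted p = 1.48e-04). Phlda3, a p53 target that restrains Akt, changed by -3.91 ± 0.21, and its AI was 0.502 in Abl.1 and 0.00213 in Abl.2. Rb1 itself rose by 2.56 ± 0.26 and Trp53inp1, a p53-induced nuclear protein gene, by 2.42 ± 0.27. Chosen after their values were seen, the p53 targets Mdm2, whose product p19Arf binds, and Cdkn1a had log2 fold changes of 1.26 and 0.39 (edgeR adjusted p = 0.0123 and 0.396). Other p53 targets of the list, also looked up afterwards, went both ways. Bax (-0.995), Pmaip1 (-1.43) and Ccng1 (-0.61) were called lower in Abl.2, and Sesn1 (1.97) and Sesn2 (0.995) higher.

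In the list of B-lineage factors, 8 of 16 tested genes were higher and 2 lower in Abl.2, with a median of 0.95 on the log2 scale, where 21.9% and 24.4% of all genes were called. With library totals 10 were higher and 2 lower, while the share of higher calls among all calls rose from 47.3% to 62.8%. In the list, as over all genes, fewer were called without a library of Abl.2 and more without a library of Abl.1. Ikzf3, which encodes the Ikaros relative Aiolos, had 2 counts in Abl.1 and 1680 in Abl.2, a ratio of 631 with a counting interval of 174 to 5214. Its relative Ikzf2, which encodes Helios, had 97 counts in Abl.1 and 0 in Abl.2, at least 43.1-fold lower against a floor of 3 counts over the clone. Gfi1, a zinc finger repressor gene, had 0 and 0.180 CPM in Abl.1 and 19.2 and 23.8 CPM in Abl.2. Its fitted log2 fold change of 7.40 ± 0.67 depends on the prior count. Ikzf3, Ikzf2 and Gfi1 passed the filter on low counts through a single clone. The direction of their calls, which are among those counted above, was thus favoured in advance. Id2, an inhibitor of E proteins, rose by 5.02 ± 0.22.

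In the list of Pax5 and Ebf1 targets, 6 of 15 were higher and 2 lower, with a median of 0.18, where 21.9% and 24.4% of all genes were called. Here too, as over all genes, fewer were called without a library of Abl.2 and more without a library of Abl.1. Il7r, the interleukin 7 receptor chain gene, had 4.53 and 3.69 CPM in Abl.1 and 456 and 541 in Abl.2 (log2 fold change 6.57 ± 0.28, edgeR adjusted p = 1.40e-04). The recombinase gene Rag2 rose by 2.83 ± 0.35, the kinase gene Blk by 2.68 ± 0.22 and the B-cell surface gene Cd72 by 1.35 ± 0.18. Of the 4 relatives of Btg1, Tob1 rose by 1.57 ± 0.34 and Btg2 by 1.00 ± 0.23, and Btg3 and Tob2 did not pass. Higher calls made up 21.9% and lower calls 24.4% of all genes. Fewer of these relatives were called without a library of Abl.2, as over all genes. Of the genes next to the Cdkn2 locus, Mtap was lower, as given above, and Dmrta1 had 0 counts in every Abl library.

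**Figure D5:**
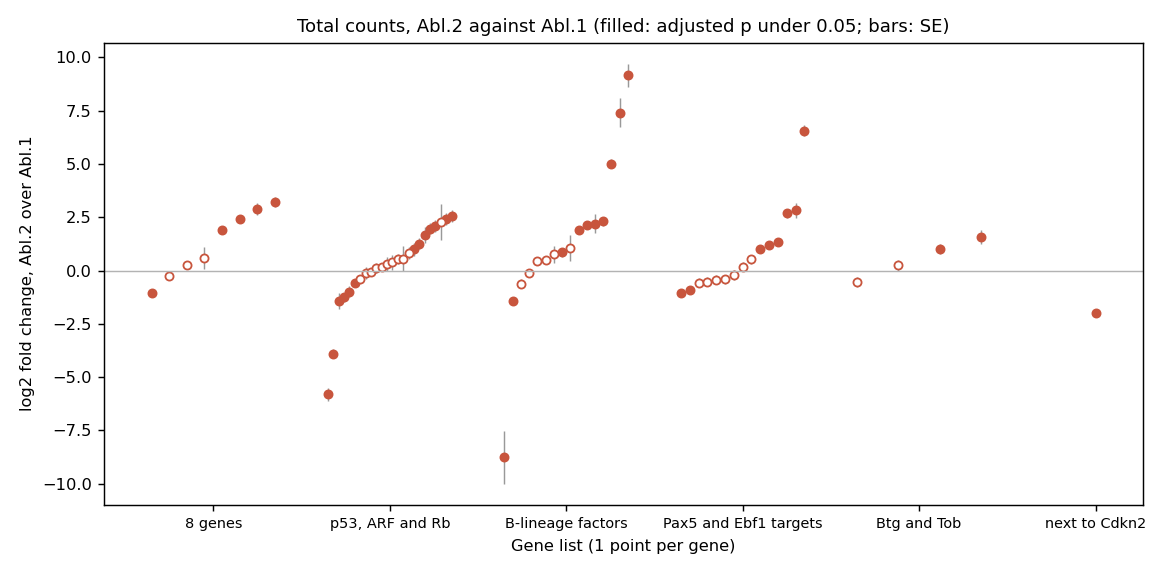
Log2 fold change of total counts from Abl.1 to Abl.2 (vertical axis) with its SE, for the 8 genes and for the genes of each list (horizontal axis, 1 point per gene in order of its value); filled points have an edgeR adjusted p under 0.05. Called genes of both signs occur among the 8 genes and in 3 of the lists, and the lowest point is Ikzf2, at 0 counts in Abl.2, whose fitted value depends on the prior count.

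AI of the listed genes on chromosome 4 was like that of the chromosome. The lists hold 6 genes of chromosome 4 with at least 10 counts in each library, Cdkn2c, Sesn2, Trp53inp1, Bach2, Cd72 and Mtap, which were singled out after their values were seen. In Abl.2 all 6 had an AI of 0.997 or above, and in Abl.1 none did, with values between 0.408 and 0.688. Cdkn2c, which encodes the INK4 inhibitor p18, had an AI of 0.629 in Abl.1 and 1.00 in Abl.2, and a log2 fold change of 0.32 ± 0.33 that did not pass (edgeR adjusted p = 0.460). Chromosome 4 was not alone in this. All listed genes of chromosome 10, also looked up afterwards, had a lower AI in Abl.2 than in Abl.1. Among them were Cdk4 (0.536 in Abl.1 and 0.365 in Abl.2), Tcf3 (0.626 and 0.369) and Cd24a (0.355 and 0.261).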

How the data were processed

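The authors aligned reads with STAR 2.5.4a to pseudogenomes of both parental strains built on GRCm38, kept unique alignments, sampled libraries to equal depth, tallied each allele per SNP by samtools mpileup, and added the tallies over merged exons outside gene overlaps. The deposited values are these whole-number counts for each allele column, gene and library, without normalization; deposited AI tables were not used.

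The 8 genes and all gene lists were chosen with earlier results of these data known. The 8 genes themselves were left out of the neighbours. Named neighbours are the nearest measured gene on each side and the 2 closest in AI over the 6 Abl runs, with Rnf145 added for Ebf1. From each list the called genes with the 4 largest changes are named, apart from genes said to be singled out afterwards. Total counts were tested with edgeR 4.0.16 (quasi-likelihood, TMM, genes with at least 10 counts in at least 2 libraries, Benjamini-Hochberg), in R 4.3.3; X and Y genes were left out against kidney. AI was tested with two-sided proportional tests on pooled counts divided by the square of QCC, for genes that reached 10 counts in every library, with Bonferroni adjustment. Where a library was left out, the QCC of the full group was kept. For QCC, genes were binned by coverage (bin edges growing by a factor of 1.05, 40 genes or more per bin, coverage from 50 up) and 7 quantiles of the AI difference were set against those of 5000 binomial draws. The threshold was 0.05. Intervals of a library's AI are exact binomial ones, those of pooled AI are Wilson intervals and those of AI differences are normal-approximation ones, the latter 2 with QCC. All are at 95%. Reads spanning several SNPs enter more than once, and PCR copies are not separate molecules, so intervals and floors cover counting error only. In a simulation of Abl.2 against Abl.1 with 11394 genes, all 200 altered genes and 9 others were found by edgeR. In one of the AI difference with 8333 genes, 185 of 200 and 0 others were found. Recovery at the counts and differences of the 8 genes was not tested. Alternatives included DESeq2 1.42.0. Other steps ran in Python 3.11.15 (scipy 1.17.1; pandas 2.3.3; numpy 2.4.6), with figures drawn by matplotlib 3.10.9.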

Additional observations from a re-analysis of the deposited data

Results flagged for a closer look

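In kidney, each gene's CPM and AI were screened for a library that stood apart in the groups of 6, wherever every library had at least 10 counts. Of 30 groups, 1 had such a library: the AI of Cdkn2b was 0.308 in replicate 6 of the NEBNext 100 ng libraries, against 0.545 to 0.679 in the other 5. The gap to the nearest library was 0.641 of the whole range, just above Dixon's critical value for 6 samples. Chance flags about 1 in 20 such groups. Cdkn2b had 13 to 41 counts in these libraries, which were used as an alternative only.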

How the results depend on the processing

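Of the counts of called genes, over all genes or over the 8, 118 stayed within 1.5 times the reported one, 21 rose above and 11 fell below. Under Benjamini-Hochberg adjustment, AI bias was called for 4829 genes in Abl.1 (2517 as reported), 5992 in Abl.2 (3358) and 4852 in kidney (2614), and AI differences for 3229 genes between the clones (1892), 2966 between Abl.1 and kidney (1479) and 3554 between Abl.2 and kidney (1990). Without QCC these were 5753 and 6124 for bias in Abl.1 and Abl.2, and 3870, 3077 and 3258 for the differences. edgeR called AI differences from kidney for 3015 genes in Abl.1 and 3398 in Abl.2. Of the 8 genes, bias in Abl.1 was called for 4 with Benjamini-Hochberg adjustment and 5 without QCC, AI differences between Abl.1 and kidney for 2 with either and with edgeR, and between Abl.2 and kidney for 2 with Benjamini-Hochberg adjustment or edgeR. In kidney SMARTseq 100 pg, 1453 genes were called biased, and 0 of the 8 genes were in that set or in NEBNext, by the QCC-corrected proportional test. The cause was not tested.

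Leaving out a library gave 1607 to 1805 biased genes and 1 to 2 of the 8 in Abl.1, and 3217 to 7680 genes called in total counts between the clones (5800 as reported), with 3391 without replicate 1 and 3217 without replicate 2 of Abl.2. Against kidney 5 of the 8 genes were then called in either clone, since Cdkn2a, Pax5 and Ikzf1 no longer passed the filter on low counts. AI minus 0.5 changed sign between the libraries left out: in Abl.1 it ranged from -0.159 to 0.0510 for Cdkn2b, from -0.0208 to 0.114 for Btg1 and from -0.0173 to 0.00878 for Trp53, and in Abl.2 from -0.00139 to 0.00773 for Trp53 and from -0.0280 to 0.0509 for Ikzf1. The AI difference ranged from -0.184 to 0.0260 for Cdkn2b between Abl.1 and kidney and from -0.00571 to 0.0204 for Trp53 between the clones, and it was -0.00290 for Etv6 in the second run.

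With NEBNext kidney, AI minus 0.5 was -0.0380 for Trp53 and 0.028 for Ebf1, the AI difference of Trp53 was 0.0319 for Abl.1 and 0.0411 for Abl.2, and the log2 fold changes of Btg1 and Etv6 in Abl.2 were 0.11 and -0.11. In kidney 100 pg, AI minus 0.5 was 0.107 for Ebf1. All these are changes of sign. Library totals, an alternative added after the data were seen, turned Trp53 between the clones to 0.11 and Btg1 in Abl.2 against kidney to 0.034.

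The replicate numbers in the titles name library preparations, and another label numbers many libraries otherwise, although both numberings pair the same first-run Abl libraries. Deviations of replicate 1 from the clone means correlated at 0.175 between the clones over 8455 genes, from only 2 numbers. With the replicate as a block, 5661 genes and 5 of the 8 were called in total counts between the clones. In edgeR on AI the block gave 2492 genes between the clones, 2575 between Abl.2 and kidney, and 2266 between Abl.1 and kidney, where the log2 allele ratio of Cdkn2b was 0.0358 and so changed sign. Of the 8 genes it called 3, 1 and 0. The edgeR calls without the block were lost for Btg1 between the clones (edgeR adjusted p = 0.0598), Btg1 and Etv6 between Abl.1 and kidney (0.0619 and 0.391) and Ebf1 between Abl.2 and kidney (0.115).

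Median AI of neighbours over the 5 nearest genes on each side was 1.00 for Cdkn2a and Cdkn2b in Abl.2, 0.452 for Pax5 in Abl.1, 1.00 and 0.453 for Ikzf1 in Abl.1 and Abl.2, 0.581 for Ebf1 in Abl.2, 0.479 and 0.337 for Btg1 in Abl.1 and Abl.2, and 0.520 for Etv6 in Abl.2. Within 2 Mb it was 0.605 and 0.998 for Cdkn2a and Cdkn2b, 0.491 and 0.998 for Pax5, 0.997 and 0.363 for Ikzf1 and 0.473 and 0.477 for Etv6, in Abl.1 and Abl.2, and 0.518 for Btg1 in Abl.1. Scaled to all autosomes but 4, 5, 7, 10 and 11 (picked with AI known), the maternal log2 ratio was 2.85 for Cdkn2a, 4.39 for Cdkn2b, 1.16 for Pax5, 2.6 for Ikzf1, 0.15 for Trp53, 0.48 for Ebf1, 2.33 for Btg1 and -0.64 for Etv6, and the paternal one 0.10 for Trp53, 0.70 for Ebf1, 3.21 for Btg1 and -0.76 for Etv6, with both columns of Trp53 changed in sign. In the second run the maternal ratio was 1.24 for Pax5 and -0.16 for Trp53. Leaving out a library, the paternal ratio ranged from -8.47 to -5.35 for Cdkn2a and from 0.20 to 0.52 for Ebf1. Depth limits Pax5 in both clones and Cdkn2b in Abl.1, with at most 53 counts a first-run library.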
